A study of Mus musculus with 24 samples.

Results

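The genes described here are the glycolysis and citrate cycle genes of the mouse lumbar spinal cord, 66 of the 15524 genes measured. They were taken by their KEGG pathway entry in the deposited table: genes listed under glycolysis and gluconeogenesis (mmu00010) or under the citrate cycle (mmu00020), and not under oxidative phosphorylation. Of these, 43 were listed for glycolysis alone, 18 for the citrate cycle alone and 5 for both (Pdha1, Pdhb, Dlat, Dld and Pck2). The last condition leaves out the 4 succinate dehydrogenase genes, which KEGG also lists as part of the respiratory chain.

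RNA came from the lumbar cord of 24 mice, sequenced in bulk by MARS-seq, which reads the 3′ end of transcripts. Per the study's methods, reads were counted for each gene. There were 4 groups of untreated mice and 1 treated group. The treated group was 4 SOD1-G37R males that had received AAV-PHP.eB-MIF, a viral vector carrying MIF with an HA tag, in the tail vein once the disease had begun. Of the 10 untreated SOD1-G37R mice, 4 males belonged to experiment 2, and 3 females and 3 males to experiment 1. The 10 non-transgenic (NT) mice had the same make-up. The transgene is a floxed human SOD1 with the G37R mutation, which causes a late-onset motor neuron disease in mice. The untreated mice of both genotypes were about 1 year old, and the SOD1-G37R mice had symptoms. No source gives the age of the MIF-treated mice, and their place in experiment 2 rests on their sample codes alone. The NT mice received no vector, and no group received a vector without MIF, so the vector and its cargo cannot be told apart.

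Glycolysis splits glucose into pyruvate in the cytosol and yields ATP without oxygen. Lactate dehydrogenase converts pyruvate and lactate into each other. Inside mitochondria the pyruvate dehydrogenase complex turns pyruvate into acetyl-CoA, which the citrate cycle oxidises, passing the electrons to the respiratory chain. Many steps have several enzymes, coded by separate genes that differ between cell types: in the nervous system Eno2, an enolase, is known as the neuronal form, and Hk3, a hexokinase, as a form of myeloid cells. The KEGG glycolysis map also holds aldehyde and alcohol dehydrogenases, which remove reactive aldehydes and do not act on the path from glucose to pyruvate.

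Values are log2 levels per mouse as the authors deposited them, after they had removed the difference between the experiments. The transform behind them is not stated, so differences are given in log2 units of these values. Read totals are not part of the files used here, and the depth of each mouse is unknown. Over all genes the median level was 4.18. Of the 66 genes, 50 lay above that median, with Aldoc (an aldolase typical of astrocytes and some neurons) highest at a mean of 11.91 and Aldh3b2 lowest at -0.20. Groups were compared with limma over all 15524 genes, with the experiment in the model where both were used, and calls were made where the p adjusted over all of them by Benjamini-Hochberg was under 0.05.

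Cell type markers differed between the genotypes in the same samples. Of 8 neuronal markers 7 were lower in SOD1-G37R mice, by between 0.53 and 1.15 log2 units, and Syt1 was not called. Their mean level ran from 8.39 to 9.11 over the untreated SOD1-G37R mice, below the range of 9.20 to 9.56 in the NT mice. Of 10 markers of microglia and macrophages 8 were higher, and their mean level ran from 6.62 to 7.40 in SOD1-G37R mice, above 5.58 to 5.96 in NT mice. Of 7 astrocyte markers 4 were higher and 1, S100b, was lower. Of 6 motor neuron markers 4 were lower, as was 1 of 6 oligodendrocyte markers, and 1 of 2 precursor markers, Cspg4, was higher. No marker of endothelium, red blood cells, skeletal muscle, Schwann cells or meningeal fibroblasts was called. In bulk tissue, fewer cells of a type and less RNA in each of those cells cannot be told apart. The part of these shifts in the differences below was not tested.

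In SOD1-G37R cords single glycolysis enzymes moved in both directions and most citrate cycle enzymes that moved were lower. Of the 43 glycolysis genes, 13 were higher and 5 were lower than in NT cords over both experiments. Of the 18 citrate cycle genes, 2 were higher and 7 were lower, and none of the 5 genes in both pathways was called. Of all genes, 14.8% were called higher and 11.8% lower, 2290 and 1830 genes. With each mouse centred on its own median these were 1645 and 2945 genes, and 9 glycolysis genes and 1 gene in both pathways were then lower. The median difference was -0.01 log2 units over the glycolysis genes, -0.11 over the citrate cycle genes, -0.06 over the 5 genes in both, and 0.0006 over all genes.

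Above the median level, the share of called genes among members was close to that among all genes. Among all members 40.9% were called, against 26.5% of all genes, but abundant genes were called more often. When only genes above the median level were tested, 20 of 50 members were called (40.0%), against 41.1% of 7762 genes. In that test 6 of 28 glycolysis genes were higher and 5 lower, and 2 of 17 citrate cycle genes were higher and 7 lower. Of all such genes 19.8% were higher and 21.3% lower. Hk2, Hk3, Galm, Aldh1b1, Aldh3b1, Pgk1 and Pgm1 were called higher over all genes but lie below that level. Whether genes of their level were called as often was not compared. The plot of the differences by enzyme role shows the single genes with their intervals.

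**Figure D1:**
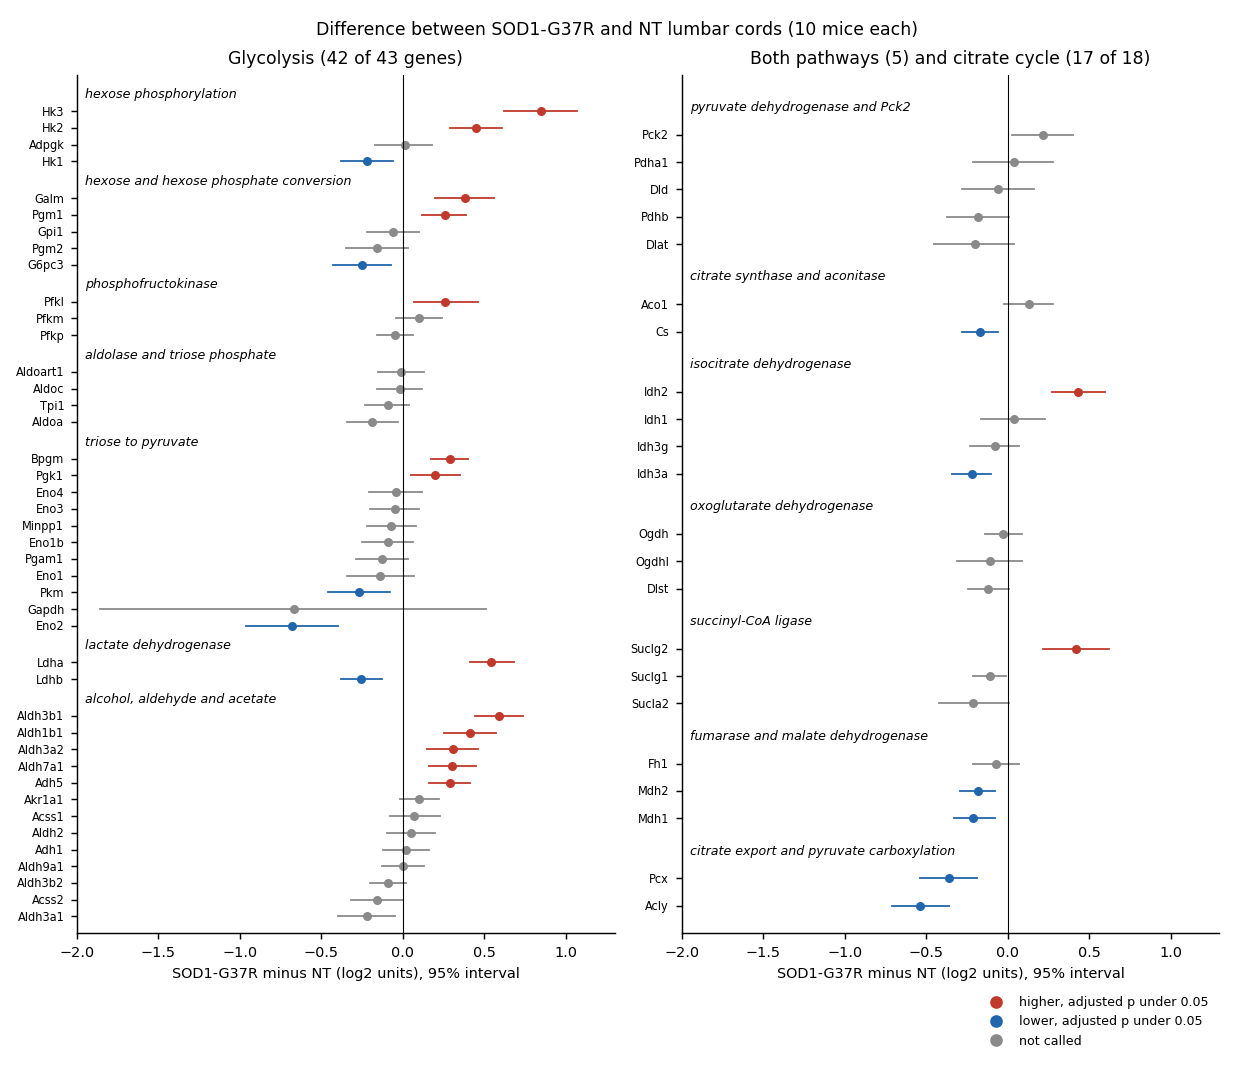
Difference between 10 untreated SOD1-G37R and 10 NT mice for 64 of the 66 genes, ordered by enzyme role. Points are limma estimates in log2 units with 95% intervals, coloured by call. The left panel has 13 genes higher and 5 lower, and the right panel has 2 higher and 6 lower. The widest interval belongs to Gapdh.

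The first step of glycolysis, the phosphorylation of glucose, is done by hexokinases. Hk1 is the form found in most neurons, Hk2 is the inducible form known from muscle and activated cells, and Hk3 belongs to myeloid cells. Hk2 and Hk3 were higher in SOD1-G37R mice, Hk1 was lower, and Adpgk, which phosphorylates glucose with ADP in place of ATP, was at 0.01 and not called.

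Hk3 (ENSMUSG00000025877, chr13:55005985-55021385 in GRCm38, minus strand) stood at 3.82, 3.47, 3.84 and 3.51 in the 4 SOD1-G37R males of experiment 2, against 2.55, 2.80, 2.72 and 3.16 in the 4 NT males. In experiment 1 it ran from 3.39 through a median of 3.59 to 4.38 in 6 SOD1-G37R mice, and from 2.65 through 2.83 to 3.25 in 6 NT mice. No SOD1-G37R mouse overlapped an NT mouse in either experiment. The difference over both was 0.85 ± 0.108 log2 units (SE, adjusted p = 1.94e-06), the largest among the 66 genes called higher.

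Hk2 (ENSMUSG00000000628, chr6:82725025-82774454, minus strand) was a gene of low level, with 2.82, 2.30, 2.83 and 2.32 in SOD1-G37R males of experiment 2, against 1.89, 2.11, 2.21 and 1.93 in NT males. In experiment 1 its lowest, median and highest values were 2.32, 2.55 and 2.65 in SOD1-G37R mice and 2.01, 2.09 and 2.29 in NT mice. All SOD1-G37R mice lay above all NT mice here too, and the difference was 0.45 ± 0.077 (SE, adjusted p = 9.78e-05).

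Hk1, at a far higher level, gave 8.67, 8.32, 8.24 and 8.46 in SOD1-G37R males of experiment 2, against 8.47, 8.49, 8.91 and 8.61 in NT males. Experiment 1 had 8.26, 8.40 and 8.57 as lowest, median and highest in SOD1-G37R mice, and 8.33, 8.69 and 8.85 in NT mice. The genotypes overlapped in both experiments. The difference of -0.22 ± 0.0766 (SE, adjusted p = 0.0332) was small beside that of Hk3.

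Of 12 genes for hexose and hexose phosphate conversion, phosphofructokinase, aldolase and triose phosphate, 3 were higher and 1 was lower. Of all genes 14.8% were higher and 11.8% lower. Galm, which interconverts the 2 forms of the glucose ring, was higher by 0.38 ± 0.0871 (SE, adjusted p = 0.00181). Pfkl, the liver-type subunit of phosphofructokinase, was higher by 0.26 (adjusted p = 0.038), while the muscle-type Pfkm at 0.10 and the platelet-type Pfkp at -0.05 were not called. Pgm1 (ENSMUSG00000029171, a phosphoglucomutase that GENCODE M21 names Pgm2, named here after its values were seen) was higher by 0.26. G6pc3, a widely expressed glucose 6-phosphatase that acts in the reverse direction, was lower by 0.25 log2 units (-0.25, adjusted p = 0.04). Gpi1, the glucose phosphate isomerase, was at -0.06, the aldolases Aldoa and Aldoc at -0.19 and -0.02, and the triose phosphate isomerase Tpi1 at -0.09, none of them called.

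In the later steps of glycolysis, from glyceraldehyde phosphate to pyruvate, Eno2 and Pkm were lower, and Pgk1 and Bpgm were higher. Eno2, the neuronal enolase (ENSMUSG00000004267, chr6:124760053-124769673, minus strand), had the largest decrease of the 43 genes that was called. It stood at 10.96, 10.06, 10.22 and 10.57 in SOD1-G37R males of experiment 2, against 10.59, 10.50, 11.14 and 11.04 in NT males. In experiment 1 the lowest, median and highest were 9.82, 10.08 and 10.37 in SOD1-G37R mice and 10.48, 11.11 and 11.34 in NT mice. The genotypes did not overlap in experiment 1 but did in experiment 2, where SOD1-G37R male 1, at 10.96, was above 2 of the 4 NT males. The difference over both was -0.68 ± 0.134 (SE, adjusted p = 0.000406), within the range of the 7 neuronal markers that were lower. Eno1, the enolase of most other cells, was at -0.14 and the muscle-type Eno3 at -0.05, neither called.

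Pkm, the pyruvate kinase of brain and muscle, was at 11.02, 10.82, 11.09 and 11.19 in SOD1-G37R males of experiment 2, against 10.98, 10.87, 11.49 and 11.18 in NT males. In experiment 1 its lowest, median and highest values were 10.63, 10.88 and 11.00 in SOD1-G37R mice and 10.87, 11.31 and 11.50 in NT mice. The difference was -0.27 ± 0.0928 (SE, adjusted p = 0.0318), and it was -0.39 in experiment 1 but -0.10 in experiment 2. Pgam1, the phosphoglycerate mutase of most tissues, was at -0.13 and not called. Pgk1, the phosphoglycerate kinase, was listed at a low mean level of 3.06 and was higher by 0.20 (adjusted p = 0.0465).

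Bpgm, which makes and breaks the 2,3-bisphosphoglycerate that tunes haemoglobin in red blood cells, was higher by 0.29 ± 0.0565 (SE, adjusted p = 0.000437). It was named after its values were seen, because its genotypes did not overlap: it ran from 7.42 to 7.80 in SOD1-G37R mice and from 7.17 to 7.41 in NT mice. The 4 measured red blood cell genes were higher by 0.56 to 0.98 log2 units in the same comparison without being called. In experiment 1, where Bpgm was higher by 0.34 without overlap, they lay between -0.41 and 0.23. They lay between 1.21 and 2.29 in experiment 2, where Bpgm was at 0.21. The part of blood content in the Bpgm difference was not tested.

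Some calls of glycolysis genes were lost when single mice were left out. Of the lower genes, Eno2 and Ldhb kept their call when any single untreated mouse was left out, but Hk1, Pkm and G6pc3 lost theirs without 9, 8 and 10 of the 20 mice, with an adjusted p of up to 0.0694, 0.0652 and 0.0822. Without NT mouse 2 or 3 of experiment 1, SOD1-G37R mouse 1, 4 or 6 of experiment 1, SOD1-G37R male 2 of experiment 2 or NT male 3 of experiment 2, the count of lower glycolysis genes was 2, and without NT mouse 1 or 6 of experiment 1 it was 3. Pfkl and Pgk1, both called higher, lost their call without 10 and 14 of the 20 mice, with an adjusted p of up to 0.0784 and 0.0968.

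Lactate dehydrogenase showed its subunits moving in opposite directions. Ldha codes for the subunit that favours lactate formation and Ldhb for the one that favours the oxidation of lactate to pyruvate. Ldha (ENSMUSG00000063229, chr7:46841475-46855627, plus strand) stood at 8.69, 8.43, 8.60 and 8.39 in SOD1-G37R males of experiment 2, against 7.91, 7.85, 7.96 and 8.13 in NT males. In experiment 1 the lowest, median and highest were 8.52, 8.65 and 8.77 in SOD1-G37R mice and 7.88, 8.11 and 8.30 in NT mice. Every SOD1-G37R mouse was above every NT mouse, and the difference of 0.54 ± 0.0634 (SE) had the smallest adjusted p of the 66 genes, 5.16e-07.

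Ldhb (ENSMUSG00000030246, chr6:142490249-142507957, minus strand) gave 10.38, 10.31, 10.46 and 10.52 in SOD1-G37R males of experiment 2, against 10.58, 10.54, 10.69 and 10.69 in NT males. Experiment 1 had 10.12, 10.38 and 10.53 as lowest, median and highest in SOD1-G37R mice, and 10.43, 10.66 and 10.89 in NT mice. The genotypes were apart in experiment 2 and overlapped in experiment 1. The difference was -0.26 ± 0.0623 (SE, adjusted p = 0.00307). Of the last 500 bases of the Ldhb transcript, 24.4% of the stretches of 50 bases also occur in transcripts of the gene Gm5514, whose own level was 2.11 to 3.48 over all 24 mice.

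**Figure D2:**
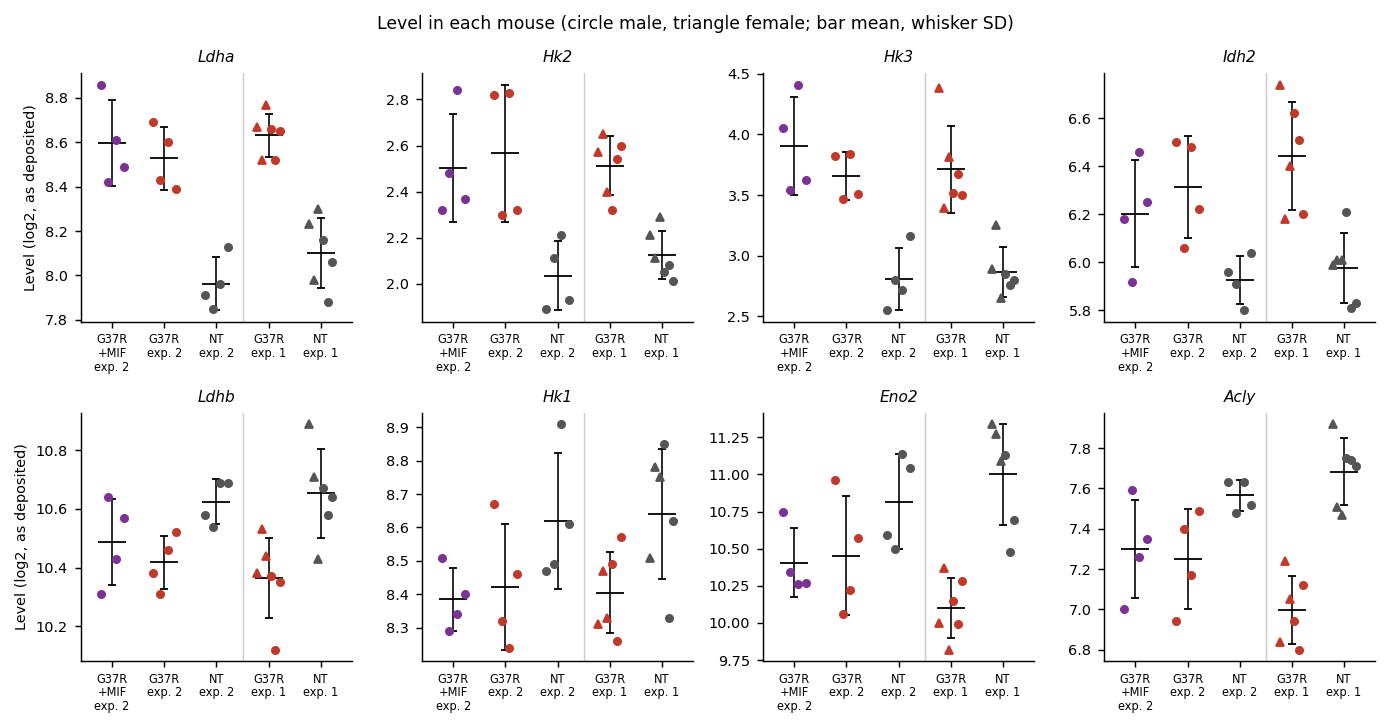
Level of 8 genes in each mouse, in log2 units as deposited, with males as circles, females as triangles, group means as bars and SDs as whiskers. Experiment 2 is left of the grey line and experiment 1 right of it, and G37R stands for SOD1-G37R. In the upper row, Ldha, Hk2 and Hk3 of the SOD1-G37R mice lie above all NT mice, and in the lower row Ldhb, Hk1, Eno2 and Acly lie lower on average.

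The hypoxia-inducible factor HIF-1 is a known regulator of Ldha and Hk2, and its binding element is often written with ACGTG as core. This core was searched on both strands (ACGTG or CACGT) from 250 bases before to 50 after each RefSeq start (GRCm38.p6), and a gene with several starts counted where any of them held it. Of the members, 56 had a promoter in the table and 27 of these held the core (48.2%), against 28.6% of the 11026 measured genes with a promoter and 21.8% of all 27025 genes. It was found in 7 of 13 members called higher, in 6 of 10 called lower and in 14 of 33 not called. Members and other genes were not matched for level or number of starts, and the differences between these shares were not tested. The windows of 30 bases around the match nearest upstream of the start are shown for the 3 members without overlap between the genotypes that held the core, and for Acly as a member called lower that held it too. Capitals mark the core, and where CACGTG appears both strands match and overlap. The windows lie on chr7:46845756-46845785 (plus strand) for Ldha, chr6:82774491-82774520 (minus) for Hk2, chr13:55021526-55021555 (minus) for Hk3 and chr11:100528056-100528085 (minus) for Acly.
Ldha: CACGTGggttcccgCACGTccgctgggctc
Hk2: ccaatgagcacatcCACGTcactgtccggg
Hk3: ttactacattttgaCACGTtgcctagttca
Acly: cccacggccccgccCACGTccgggactaca
The Ldha promoter held 5 such matches before the start, that of Hk2 held 2, and those of Hk3 and Acly held 1 each. That of Pcx, also called lower and not shown, held 3. In these numbers a CACGTG, as in the Ldha window, was counted once for each strand, so separate sites can be fewer. A match is a string of letters and not a measured binding site. No match was found in this window for Ldhb, Eno2, Bpgm or Aldh3b1.

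Of the 13 genes for alcohols, aldehydes and acetate on the glycolysis map, 5 were higher and none was lower over both experiments, where 14.8% of all genes were higher and 11.8% lower. Aldh3b1, an aldehyde dehydrogenase bound to membranes, stood at 4.13, 3.97, 4.07 and 4.10 in SOD1-G37R males of experiment 2, against 3.74, 3.76, 3.52 and 3.30 in NT males. In experiment 1 its lowest, median and highest were 4.01, 4.27 and 4.37 in SOD1-G37R mice and 3.36, 3.58 and 3.80 in NT mice. The genotypes did not overlap, and the difference was 0.59 ± 0.0708 (SE, adjusted p = 8.29e-07).

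The other 4 were Aldh1b1, a mitochondrial acetaldehyde dehydrogenase, higher by 0.41 (adjusted p = 0.000234); Aldh3a2, a fatty aldehyde dehydrogenase, by 0.31; Aldh7a1, an enzyme of lysine breakdown, by 0.30; and Adh5, the formaldehyde-clearing class III alcohol dehydrogenase, by 0.29. Aldh2, the main mitochondrial acetaldehyde dehydrogenase, was at 0.05 and the acetyl-CoA synthetase Acss2 at -0.16, neither called. Aldh3a1 was not called over both experiments, at -0.22, but was called lower in experiment 1.

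Over both experiments, 5 of the 66 genes had no overlap between the genotypes, namely Ldha, Hk2, Hk3, Bpgm and Aldh3b1, all of them on the glycolysis list and all higher in SOD1-G37R mice. Among all genes 3.23% were higher and 0.773% lower without overlap. No member was lower without overlap over both experiments, but within experiment 1 this held for Eno2, Acly and Pcx, where 4.72% of all genes did so. In that experiment 6 members were higher without overlap (the 5 above and Suclg2), where 7.07% of all genes were. Within experiment 2, 10 members were higher and 3 lower without overlap (Pgam1, Ldhb and Mdh1), where 6.56% of all genes were higher and 3.07% lower.

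On the citrate cycle list Acly and Pcx had the largest decreases. Acly, the cytosolic ATP citrate lyase (ENSMUSG00000020917, chr11:100476353-100528000, minus strand), makes acetyl-CoA for lipid synthesis from exported citrate. It stood at 6.94, 7.40, 7.17 and 7.49 in SOD1-G37R males of experiment 2, against 7.63, 7.48, 7.63 and 7.52 in NT males. In experiment 1 the lowest, median and highest were 6.80, 6.99 and 7.24 in SOD1-G37R mice and 7.47, 7.72 and 7.92 in NT mice. The genotypes did not overlap in experiment 1, while in experiment 2 SOD1-G37R male 4, at 7.49, reached just above the lowest NT male. The difference over both was -0.54 ± 0.085 (SE, adjusted p = 3.41e-05).

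Pcx, the pyruvate carboxylase, refills the cycle with oxaloacetate and in the brain is known as an astrocyte enzyme. Its level was 6.45, 6.35, 6.59 and 6.76 in SOD1-G37R males of experiment 2, against 6.85, 6.35, 6.83 and 6.78 in NT males. In experiment 1 it ran from 6.24 through 6.43 to 6.52 in SOD1-G37R mice, and from 6.58 through 6.88 to 7.16 in NT mice. The difference was -0.36 ± 0.0845 (SE, adjusted p = 0.00201). Of the 7 astrocyte markers 4 were higher, up to 1.85 for Gfap, while S100b was lower at -0.23, and their part in the Pcx difference was not tested. NT male 2 of experiment 2, at 6.35, lay with the SOD1-G37R mice, while the other NT males did not.

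Cs, the citrate synthase, was lower by 0.17 log2 units (-0.17, adjusted p = 0.017). The cytosolic aconitase Aco1, which also acts as an iron sensor, was at 0.13 and not called. Among the malate dehydrogenases the mitochondrial Mdh2 stood at 9.43, 9.14, 9.27 and 9.31 in SOD1-G37R males of experiment 2, against 9.39, 9.38, 9.47 and 9.41 in NT males. In experiment 1 the lowest, median and highest were 9.14, 9.23 and 9.35 in SOD1-G37R mice and 9.34, 9.46 and 9.55 in NT mice. These ranges overlapped narrowly, and the difference was -0.18 ± 0.0514 (SE, adjusted p = 0.00901). The cytosolic Mdh1 was at -0.21 (adjusted p = 0.0142), and the fumarase Fh1 at -0.07 was not called.

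Of the 4 isocitrate dehydrogenase genes 1 was higher and 1 lower, where 14.8% of all genes were higher and 11.8% lower. Idh2, the mitochondrial form that makes NADPH (ENSMUSG00000030541, chr7:80094846-80115392, minus strand), was higher, with 6.50, 6.06, 6.48 and 6.22 in SOD1-G37R males of experiment 2, against 5.96, 5.91, 5.80 and 6.04 in NT males. In experiment 1 it ran from 6.18 through 6.46 to 6.74 in SOD1-G37R mice, and from 5.81 through 6.0 to 6.21 in NT mice. The difference was 0.43 ± 0.0792 (SE, adjusted p = 0.00018), and the groups were apart in experiment 2.

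Idh3a, the catalytic subunit of the NAD-dependent enzyme of the cycle, was lower. Its level was 7.68, 7.94, 7.79 and 7.88 in SOD1-G37R males of experiment 2, against 7.99, 7.88, 8.00 and 8.07 in NT males, and in experiment 1 its lowest, median and highest were 7.56, 7.76 and 7.88 in SOD1-G37R mice, against 7.77, 8.04 and 8.12 in NT mice. The difference was -0.22 ± 0.0591 (SE, adjusted p = 0.00643). Idh3b, another subunit, has no pathway entry in the table and is no member; it was at -0.29 (adjusted p = 0.000406). The subunit Idh3g at -0.08 and the cytosolic Idh1 at 0.04 were not called.

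Succinyl-CoA ligase has a shared subunit, Suclg1, and a choice of partner that makes GTP (Suclg2) or ATP (Sucla2). Suclg2 stood at 4.80, 5.05, 5.07 and 4.95 in SOD1-G37R males of experiment 2, against 4.61, 5.30, 4.56 and 4.63 in NT males. In experiment 1 it ran from 4.84 through 5.11 to 5.40 in SOD1-G37R mice, and from 4.36 through 4.6 to 4.64 in NT mice. NT male 2 of experiment 2, at 5.30, was above all 4 SOD1-G37R males of that experiment, whereas in experiment 1 the groups did not overlap. The difference was 0.42 ± 0.096 (SE, adjusted p = 0.00187), while Sucla2 at -0.21 and Suclg1 at -0.11 were not called. The oxoglutarate dehydrogenase genes Ogdh, Ogdhl and Dlst lay between -0.12 and -0.03 without a call.

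The lower calls of the citrate cycle held when any single mouse was left out, with 7 or 8 genes. After quantile normalization across mice, however, only 2 of the 18 genes were lower. Cs, Idh3a, Mdh1 and Mdh2 were among those that lost their call, with an adjusted p of up to 0.285 over the alternatives for these 4 genes. In males only 4 were lower and 1 was higher, as Suclg2 missed the threshold (adjusted p = 0.0583).

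The 5 genes in both pathways code for the pyruvate dehydrogenase complex and for Pck2, the mitochondrial phosphoenolpyruvate carboxykinase. Of the complex, Pdha1 was at 0.04, Pdhb at -0.18, Dlat at -0.20 and Dld at -0.06, with 95% intervals that reached from -0.45 to 0.28 over the 4 genes. Pck2 was at 0.22 (interval 0.03 to 0.40, adjusted p = 0.0852). None passed the test over both experiments.

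Each experiment gave the same sign for most members. Within experiment 1, 12 of the 66 genes were higher and 10 lower, where 12.8% of all genes were higher and 10.5% lower (23.3% called). Within experiment 2, with 4 mice a group, Hk3, Ldha and Aldh3b1 were higher at 0.85, 0.57 and 0.49, and no member was lower, where 3.36% of all genes were higher and 0.477% lower (3.83% called). The difference had the same sign in both experiments for 50 of 66 members (75.8%) and for 69.8% of all genes. Without NT mouse 2 or SOD1-G37R mouse 4, the lower genes of experiment 1 numbered 5, and without SOD1-G37R male 3 the higher genes of experiment 2 numbered 1.

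**Figure D3:**
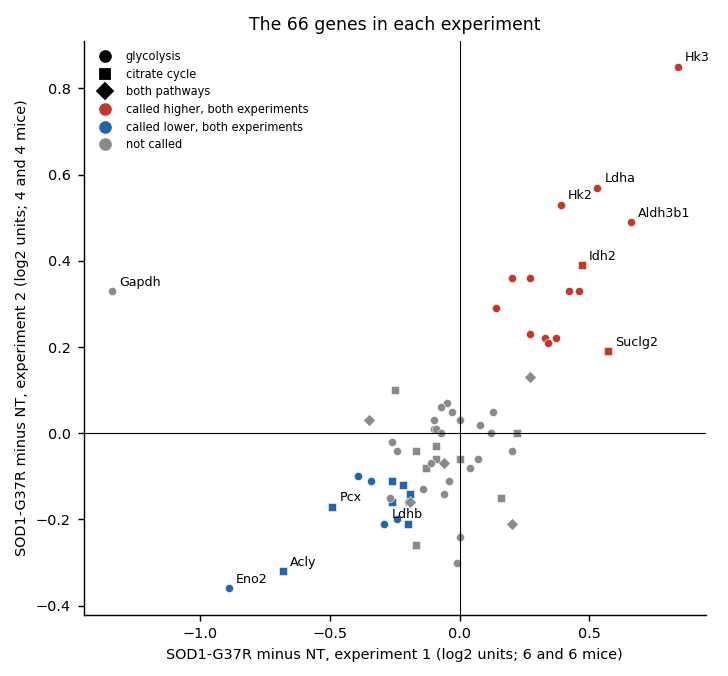
Difference between SOD1-G37R and NT mice in experiment 1 (horizontal) and experiment 2 (vertical), in log2 units, for the 66 genes, with the shape giving the pathway and the colour the call over both experiments. Hk3, Ldha, Aldh3b1 and Hk2 lie upper right and Eno2, Acly and Pcx lower left. Gapdh stands apart at -1.34 in experiment 1 and 0.33 in experiment 2.

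No member passed the test of genotype by experiment in males or that of genotype by sex in experiment 1, where 0.0% of all genes did. At an unadjusted p under 0.05 there were 2 members in the first test, Acly and Ogdhl, both at 0.46, the amount by which the difference was higher in experiment 2 than in experiment 1. In the second, the difference in females minus that in males, there were 3, with Eno2 at -0.54, Aldh2 at 0.40 and Pgk1 at 0.38. With 3 mice per sex and genotype, a p that misses the threshold does not show that the sexes were alike.

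Gapdh, the glyceraldehyde phosphate dehydrogenase and a common reference gene, behaved unlike the other members. It stood at 9.61 in MIF-treated male 2 and between 6.54 and 6.85 in the other 3. Among SOD1-G37R males of experiment 2 it was 10.48, 7.57, 6.93 and 6.79, against 6.50, 6.55, 7.01 and 10.38 in NT males. In experiment 1 it ran from 6.60 through 6.82 to 7.02 in SOD1-G37R mice, and from 6.77 through 7.32 to 11.00 in NT mice. The difference between genotypes was -0.67 with a 95% interval of -1.86 to 0.51, and it was not called (adjusted p = 0.44).

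The Gapdh transcript shares its end with many other genes: of the stretches of 50 bases in its last 500 bases, 90.5% also occur in transcripts of 138 other genes, and 90 of these are rows of the table. One such row was as uneven as Gapdh: Gm10358 was at 9.24 and 9.03 in MIF-treated males 1 and 4 and at 9.55 in an NT male of experiment 1, but between 2.24 and 3.21 in the other 21 mice. Summed on the linear scale with all 90 rows and put back into log2, Gapdh and its copies ran from 9.75 to 11.72, a narrower range than that of Gapdh alone, 6.50 to 11.00. In experiment 1 the sum was lower in SOD1-G37R mice without overlap, at 9.75 to 10.14 against 10.37 to 11.72 in NT mice. In experiment 2 the genotypes overlapped, and the NT males, at 9.78 to 11.48, enclosed the untreated SOD1-G37R males. The difference in the sum was not tested with limma. With its end shared, the values of Gapdh alone are uncertain. So are those of Eno1 and Eno1b, whose ends were shared at 75.2% and 82.3%.

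**Figure D4:**
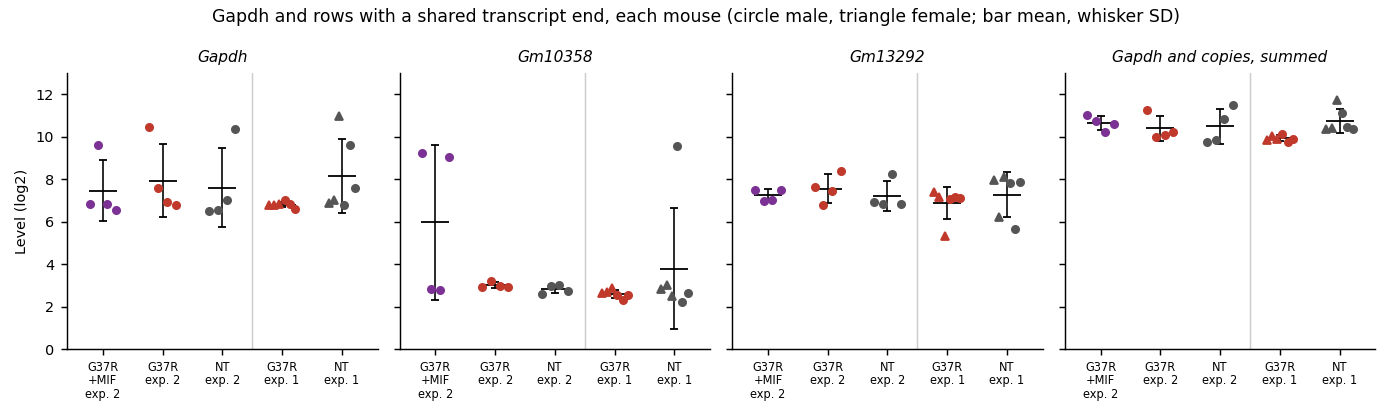
Level in each mouse, in log2 units, of Gapdh, of 2 rows that share its transcript end (Gm10358 and Gm13292), and of the sum of Gapdh and all 90 such rows, with means as bars and SDs as whiskers. Gapdh is high in 1 or 2 mice of 4 of the 5 groups, and Gm10358 in 3 mice in which Gapdh is low.

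Some genes around these pathways, from lists of transporters and regulators, were called as well between SOD1-G37R and NT mice over both experiments. Of all genes, 14.8% were higher and 11.8% lower there, shares that also apply to the counts in the following paragraphs on such lists. Of 9 measured transporters of glucose and lactate 3 were higher and 1 lower: Slc16a3, a lactate exporter, by 0.93 (adjusted p = 8.18e-07), Slc2a4, the insulin-responsive glucose transporter, by 0.89 (adjusted p = 6.15e-08), and Slc16a7, a monocarboxylate transporter, by 0.21, while Slc2a3, the neuronal glucose transporter, was at -0.29. Slc2a1, the glucose transporter of endothelium and astrocytes, was at 0.04 and not called. Slc16a3 stood at 4.39 to 4.71 in the SOD1-G37R mice of experiment 1 and at 3.28 to 4.16 in the NT mice of that experiment.

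Of 15 measured regulators 4 were higher and 2 lower. Hif1a, which codes for the oxygen-regulated subunit of HIF-1, was higher by 0.49 (adjusted p = 0.00485) over both experiments, with 0.78 in experiment 1 (adjusted p = 5.08e-05) and 0.06 in experiment 2 (adjusted p = 0.909). Pdk4 and Pdk1, kinases that switch off pyruvate dehydrogenase, were higher by 0.49 and 0.31, and their relative Pdk2 was at -0.23 (adjusted p = 0.0434). Pfkfb4, which makes the activator of phosphofructokinase, was higher by 0.34, and Tigar, which breaks that activator down, was at -0.32. Of the pentose phosphate pathway, which branches off at glucose 6-phosphate, 4 of 7 genes were higher (G6pdx 0.30, Pgd 0.36, Taldo1 0.23 and Rpe 0.27) and 1, Tkt, was lower at -0.22.

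On the mitochondrial side 1 of 8 carrier and pyruvate entry genes was called, Slc25a12, the neuronal aspartate and glutamate carrier, at -0.38 (adjusted p = 0.000882). The pyruvate carrier genes Mpc1 and Mpc2 were at 0.08 and -0.12. Of the 4 succinate dehydrogenase genes, Sdha, the flavoprotein subunit, was at -0.14 (adjusted p = 0.0292), and the others lay between -0.06 and 0.04 without a call.

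MIF treatment was not followed by a detectable change of any member. Between 4 MIF-treated and 4 untreated SOD1-G37R males, 0 of 66 genes passed the limma test, and of all genes 0.00644% did, a single gene. At an unadjusted p under 0.05 there was 1 member, Dld, the lipoamide dehydrogenase that pyruvate and oxoglutarate dehydrogenase share, at 0.34 (interval 0.02 to 0.67). It ran from 5.86 to 6.31 in MIF-treated males and from 5.39 to 5.99 in untreated SOD1-G37R males, with overlap. For 62 of the 66 genes the 95% interval lay within 0.5 log2 units of 0. The median distance from the estimate to either end was 0.25. These intervals are not adjusted over all genes, and Dld at 0.34 was not called. Differences larger than 0.25 can therefore also have been missed with these mice.

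Mouse Mif itself stood at 10.02, 9.73, 9.77 and 9.57 in the MIF-treated males, against 9.72, 9.53, 9.78 and 9.71 in untreated SOD1-G37R males, and did not differ beyond that spread (0.09, limma adjusted p = 1.0). Whether transcripts of the vector are counted in this row is not known, so it does not check the treatment. The median difference was -0.02 over the glycolysis genes, 0.03 over the citrate cycle genes and 0.12 over the 5 genes in both pathways.

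The members that set the genotypes apart were near the level of untreated SOD1-G37R mice in the treated mice. Ldha was 8.86, 8.42, 8.61 and 8.49 in MIF-treated males, against 8.69, 8.43, 8.60 and 8.39 in untreated SOD1-G37R males, a difference of 0.07 (interval -0.18 to 0.32). Hk3 was 4.05, 3.54, 4.41 and 3.62 in MIF-treated males, against 3.82, 3.47, 3.84 and 3.51 in untreated SOD1-G37R males, a difference of 0.24. Eno2 was 10.75, 10.34, 10.26 and 10.27 in MIF-treated males, against 10.96, 10.06, 10.22 and 10.57 in untreated SOD1-G37R males, a difference of -0.05. In each of these genes the groups overlapped.

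Acly was 7.0, 7.59, 7.26 and 7.35 in MIF-treated males, against 6.94, 7.40, 7.17 and 7.49 in untreated SOD1-G37R males, a difference of 0.05. Idh2 was 6.18, 5.92, 6.46 and 6.25 in MIF-treated males, against 6.50, 6.06, 6.48 and 6.22 in untreated SOD1-G37R males, a difference of -0.11. Neither was called. The mean level of the neuronal markers was 8.64 to 9.20 in MIF-treated and 8.54 to 9.11 in untreated SOD1-G37R males, and that of the microglia and macrophage markers was 6.72 to 7.18 in MIF-treated and 6.62 to 7.32 in untreated SOD1-G37R males.

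Against NT males, the MIF-treated mice had 3 members higher and none lower, where 2.89% of all genes were higher and 0.225% lower (3.11% called). These were Hk3 at 1.10 (adjusted p = 0.00189), Ldha at 0.63 (adjusted p = 0.00523) and Aldh3b1 at 0.49 (adjusted p = 0.0335). Untreated SOD1-G37R males gave 0.85, 0.57 and 0.49 for these genes against the same NT males, so that both comparisons share their 4 controls. Hk2 was at 0.47 in MIF-treated males and 0.53 in untreated SOD1-G37R males, and Eno2 at -0.41 in MIF-treated and -0.36 in untreated SOD1-G37R males, none of them called within experiment 2.

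**Figure D5:**
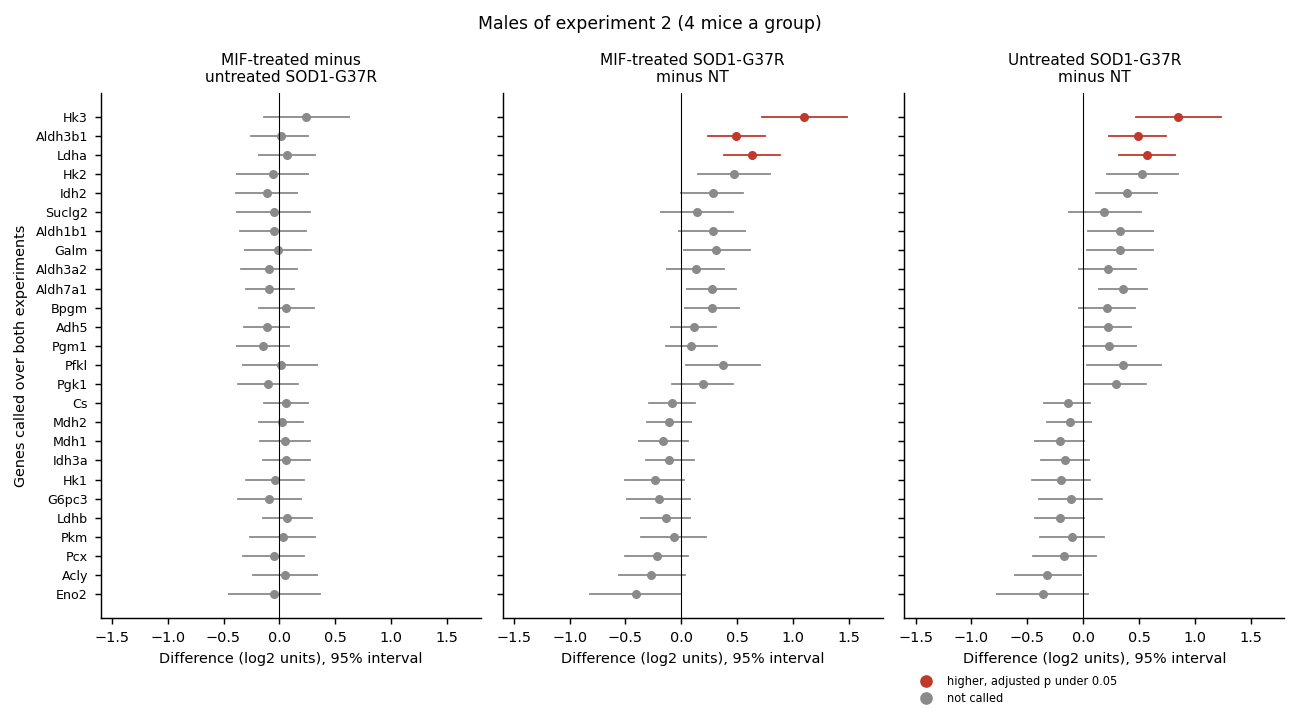
Differences among the 12 males of experiment 2 for 26 of the 27 genes called over both experiments, in log2 units with 95% intervals. MIF-treated against untreated SOD1-G37R mice (left) gave no call, while against NT mice Hk3, Ldha and Aldh3b1 were higher in MIF-treated (middle) and in untreated SOD1-G37R mice (right).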

How the data were processed

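Lumbar spinal cord RNA of 24 mice was measured by bulk MARS-seq. Per the study's methods and notes, trimming used Trim Galore 0.4.5 with cutadapt 1.15, alignment STAR 2.5.2a on GRCm38 and counting RSEM 1.2.28, after which the authors took out the batch effect (SVA/ComBat). The values per mouse are log2 levels as deposited by the authors (-0.79 to 14.76, 2.22% below 0); their transform is not stated. Fold changes and p-values of the authors' own tests in the same table were not used.

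The untreated mice were placed in an experiment from their sample codes and the group sizes in the methods. All 15524 genes were fitted with limma 3.58.1 in R 4.3.3, with no filter and no trend, with experiment as a term where both were used, and Benjamini-Hochberg adjustment over all genes. The fits were tested on simulated data. Python 3.11.15, pandas 2.3.3, numpy 2.4.6 and matplotlib 3.10.9 did the rest. Positions came from GENCODE M21 and promoters from RefSeq.

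Members, lists and tests were chosen with earlier results of these data known. Named were the enzymes of each step by role, and of the other members up to 6 called per pathway and direction. For the 4 of smallest adjusted p in each, values are given for every mouse of experiment 2 and as lowest, median and highest in experiment 1. Pgam2 is not analysed here, and the single results of 2 members are not reported. Alternatives were a replicate block, a filter on level, a trend, median centring, quantile normalization, other covariates, males only, a stricter threshold, leaving out each mouse and, chosen after seeing the data, the first component of within-group deviations as a term. Mice with the same number did not deviate together throughout, so the numbers were not taken to pair them.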

Additional observations from a re-analysis of the deposited data

Results flagged for a closer look

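Among 235 sets of 4 to 6 mice of 1 group and 1 named gene, 9 had a mouse far from the rest by Dixon's test, where chance gives about 1 in 20. NT male 2 of experiment 2 was the mouse in 3 of them: Pcx at 6.35 (others 6.78 to 6.85), Suclg2 at 5.30 (others 4.56 to 4.63) and Aco1 at 5.86 (others 5.74 to 5.76). Gapdh accounted for 2, with 9.61 in MIF-treated male 2 (others 6.54 to 6.85) and 10.38 in NT male 4 of experiment 2 (others 6.50 to 7.01). The others were Adh5 at 6.93 in MIF-treated male 1 (others 7.12 to 7.14), Eno1 at 6.47 in MIF-treated male 4 (others 7.03 to 7.10), G6pc3 at 7.73 in SOD1-G37R male 2 of experiment 2 (others 8.03 to 8.07) and Dld at 5.40 in NT male 3 of experiment 2 (others 5.88 to 5.91). In each of these but the 2 of Gapdh, the other mice of the group lay within 0.1 log2 units of each other, and no cause was tested for any of them.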

How the results depend on the processing

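Of 24 named genes called between SOD1-G37R and NT mice, 14 kept their call without each of 20 mice and under the 9 alternatives, or 8 for the 5 of them below the median level, which the filter on level left out. None changed direction. Of the 13 higher glycolysis genes, 6 were called among genes above the median level. The 5 lower ones became 2 at an adjusted p under 0.01, 2 in males only, 9 with median centring and 8 with quantile normalization. Citrate cycle genes had 1 higher and 4 lower in males only and 2 lower with quantile normalization, and the genes in both pathways had 1 lower with median centring. Of all genes, 1506 were higher and 938 lower in males only, and 1982 higher and 2138 lower with quantile normalization. Median centring moved all genes by -0.07 and gave 1645 higher and 2945 lower (35.8% higher) against 2290 and 1830 (55.6% higher). Within experiment 1 the members had 7 higher (above the median level), 3 lower (adjusted p under 0.01) and 19 lower (median centring). Within experiment 2 they had 0 higher (adjusted p under 0.01), 1 (above the median level) and 5 (component as a term, chosen after seeing the data). MIF-treated against NT gave 1 higher (above the median level) and 5 (all 24 mice in 1 fit). The counts over all genes moved under these settings too. Within experiment 1, 2454 genes were lower with median centring, against 1636 without it. Within experiment 2, 713 were higher with the component as a term, against 521 without it. For MIF-treated against NT, 928 were higher with all 24 mice in 1 fit, against 448 in the main fit. Why the counts moved was not tested.

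Leaving out 1 mouse gave 11 to 13 higher and 2 to 7 lower glycolysis genes, 7 to 8 lower citrate cycle genes, 0 to 1 higher genes in both pathways, 11 to 14 higher and 5 to 12 lower in experiment 1, 1 to 4 higher in experiment 2 and 2 to 3 higher for MIF-treated against NT. A replicate block by mouse number gave 2272 higher and 1875 lower genes, and of the named members Pgk1 lost its call. Same-numbered mice correlated between -0.256 and 0.369. Depth per mouse is unknown, so no limit from depth is given.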
